A study of Mus musculus with 10 samples.

Results

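CD11c-eYFP+ cells sorted from the ischemic brain were compared between mice that carry the reporter themselves and wild type mice that received reporter cells through a shared circulation. The comparison holds 7 of the 10 libraries of the series, chosen by the group that their labels and titles give, and it covers all genes of the count table. 4 libraries (replicates 23, 24, 26 and 27, called transgenic here) came from female Tg(Itgax-Venus)1Mnz mice aged 13 to 14 weeks, in which the promoter of Itgax, the gene of CD11c, drives a yellow fluorescent protein. The other 3 (replicates 3, 11 and 15, called parabiotic) came from C57BL/6 mice aged 15 to 16 weeks that were surgically joined to a Tg(Itgax-Venus)1Mnz partner. Replicate 15 was placed by its title, because its labels give the strain C57BL/6, the genotype Tg(Itgax-Venus)1Mnz and that age, but no cell type or sex. The remaining 3 libraries, CX3CR1+ microglia of CX3CR1CreERT2:Rosa26-tdT mice aged 13 to 14 weeks, entered the fit and serve here as a reference level. All 10 came from the ipsilateral hemisphere. Genotype, age and parabiosis differ together between transgenic and parabiotic mice and cannot be told apart. The labels do not say whether each library is one animal or a pool, so p-values here speak only of the spread among these samples, which may be technical.

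CD11c is an integrin of dendritic cells, the cells that take up antigen, travel to lymph nodes and present peptides to T cells on MHC class II. It is not confined to them, since monocyte-derived macrophages and microglia in injured or developing brain can also switch on Itgax. In an Itgax reporter mouse any cell that uses the promoter can be sorted, whether it was resident or recruited. In a wild type mouse joined to a reporter partner, only cells that crossed through the blood can carry the reporter, while the host's own CD11c cells stay dark. Microglia settle the brain in the embryo and are replaced locally, so they exchange little through parabiosis. They depend on CSF1R signalling and on the transcription factor Sall1, and they divide after injury.

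The 7 CD11c libraries held 33229181 to 41730688 counts. Levels below are CPM, a gene's count relative to its library's total after TMM scaling. Fold changes are on the log2 scale with the SE of edgeR's quasi-likelihood fit, and a gene is called where the Benjamini-Hochberg p over all tested genes is under 0.05. CPM are not divided by gene length, so they compare libraries and not genes. Replicates 26 and 27 carry library numbers apart from the consecutive numbers of the other libraries, and are therefore also given apart, from a second fit with 4 means. Transgenic replicates 23 and 24 were very alike: 21 of 9757 genes at 5 CPM or more (0.215%) differed over 2-fold between them, against 0.914% to 1.29% between pairs of parabiotic libraries. Replicates 26 and 27 differed over 2-fold in 16% of genes from each other, and in 13% to 18% from replicates 23 and 24, so they are no tight pair. The fits give each gene one spread for all groups, so that p-values for the mean of replicates 26 and 27 rest partly on the closer agreement of the other libraries. Itgax itself, the gene behind the sort, stood at 542, 442 and 528 CPM in the parabiotic libraries, at 349 and 318 CPM in transgenic replicates 23 and 24, and at 114 and 117 CPM in replicates 26 and 27. The microglia lay at 22.6 to 56.9 CPM. Every transgenic library was below every parabiotic one for Itgax. By edgeR this was no call over the transgenic group (-1.17 ± 0.43, adjusted p = 0.118, and 0.042 by DESeq2), and it was one for replicates 26 and 27 alone (-2.13, adjusted p = 0.00212).

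Transgenic CD11c cells had higher transcript levels of microglial identity genes, of genes of cell division and of a few inflammatory cytokines and chemokines, and lower levels of MHC class II and of some monocyte and neutrophil genes. Of 15151 tested genes, 1156 were higher (7.63%) and 367 lower (2.42%) in transgenic than in parabiotic cells, with a median fold change over all genes of 0.04. As alternative tests, DESeq2 called 1575 of them higher and 844 lower, and limma-voom 979 and 546. All genes at an unadjusted p under 0.05 were not counted, so list counts at that threshold have no such share beside them. Against the same parabiotic libraries, replicates 23 and 24 were higher in 1245 genes (7.75%) and lower in 370 (2.3%) of 16058 tested. For replicates 26 and 27 the counts were 2368 higher (14.7%) and 1645 lower (10.2%). Between the transgenic sets, replicates 26 and 27 were higher than 23 and 24 in 1272 genes (7.92%) and lower in 1330 (8.28%). The counts depended on single libraries. The 367 lower genes became 111, 136 and 114 without parabiotic replicates 3, 11 and 15, and 851 without transgenic replicate 27, while the 1156 higher genes became 719 and 761 without parabiotic replicates 3 and 11. For replicates 26 and 27 against 23 and 24, the 1272 higher and 1330 lower genes became 114 and 234 without replicate 23, and 21 and 201 without replicate 24.

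The 5 genes that mark the contrast show its different sides. Sall1 (chromosome 8, 89027235 to 89044162, GRCm38), a zinc finger transcription factor that maintains microglial identity, stood at 0.259, 0.152 and 0.395 CPM in parabiotic replicates 3, 11 and 15. The transgenic libraries, in the order 23, 24, 26 and 27, reached 139, 165, 85.6 and 26.1 CPM, and in microglia 318 to 467 CPM. All 4 transgenic libraries lay above all parabiotic ones and below the microglia, with replicate 27 lowest (log2 fold change 8.58 ± 0.73, adjusted p = 5.48e-05). Mki67 (chromosome 7, 135689784 to 135716361), a nuclear protein of dividing cells, was at 17.7, 17.6 and 18.5 CPM in the parabiotic libraries and at 103, 86.4, 150.0 and 93.9 CPM in the transgenic ones. The transgenic values lay within the range of the microglia extended at the top by replicate 26 (77.6 to 145 CPM in microglia), and the difference from parabiotic cells passed (2.60 ± 0.26, adjusted p = 0.000161).

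Tnf, the gene of tumour necrosis factor, was at 20.48, 24 and 36.49 CPM in parabiotic cells and at 303, 323, 457 and 249.5 CPM in transgenic cells (3.62 ± 0.30, adjusted p = 4.98e-05). Il1a, which encodes the alarm cytokine interleukin 1 alpha, was at 51.4, 60.6 and 72.7 CPM against 730.3, 833, 862 and 572 CPM (3.61 ± 0.21, adjusted p = 6.02e-06). Microglia had 704 to 1065 CPM of Tnf and 1564 to 1723 CPM of Il1a, above every transgenic library. Neither gene overlapped between parabiotic and transgenic cells, and neither differed between the transgenic sets by the test (adjusted p = 0.785 for Tnf and 0.717 for Il1a). Ngp, a protein of neutrophil secondary granules, went the other way and unevenly: its parabiotic values were 0.316, 189 and 27.1 CPM in replicates 3, 11 and 15, with no count in any of the 4 transgenic libraries. With 3 counts over the whole transgenic group taken as a floor, Ngp was at least 3620-fold higher in parabiotic cells, and at least 682-fold without replicate 11 (edgeR, adjusted p = 0.0126). The call ended by limma-voom (adjusted p = 0.245), without a low-count filter (0.163), with the 7 CD11c libraries alone (0.0529) and without replicates 26 and 27 (0.102). In the fit with 4 means Ngp was not called for replicates 23 and 24 against parabiotic cells (edgeR, adjusted p = 0.0543). A term for the library numbers gives that same contrast.

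**Figure D1:**
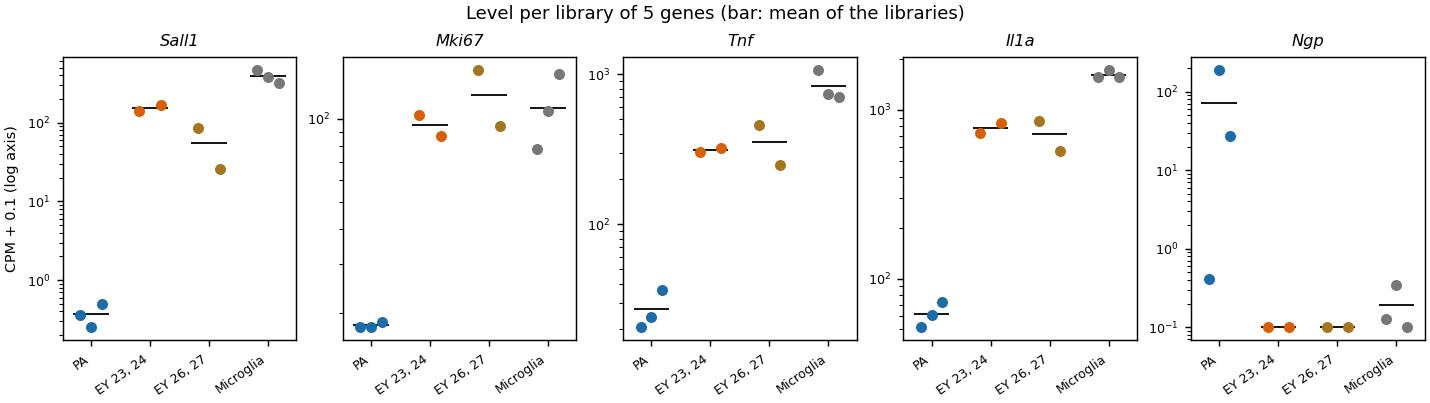
Level of Sall1, Mki67, Tnf, Il1a and Ngp in every library (points; CPM + 0.1 on a log axis), for parabiotic (PA) and transgenic (EY) CD11c cells and microglia, with the mean of each set as a bar. For the first 4 genes every transgenic library lies above every parabiotic one, and Ngp is at 0 in all 4 transgenic libraries.

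Genes of microglial identity were higher in transgenic cells in most members of their list. Of 29 tested members of the list, 24 rose in transgenic against parabiotic cells, 0 fell and 5 were not called, with a median of 2.12, where 7.63% of all tested genes rose and the median of all was 0.04. Against the parabiotic libraries, replicates 23 and 24 had 25 members higher (median 2.43) and replicates 26 and 27 had 22 (median 1.75). Of all genes 7.75% and 14.7% were higher in these contrasts. Between the transgenic sets 7 of 29 were lower in replicates 26 and 27, where 8.28% of all genes were, and none was higher. Without parabiotic replicate 3 the 24 higher members became 16, and without replicate 11 they became 17. The summed level of the list was 8543 to 11150 CPM in parabiotic libraries, 14770 to 30680 CPM in transgenic ones and 48380 to 52070 CPM in microglia. No member was at 0 in all libraries of a group. The part of microglia in the differences of other gene groups was not tested, and in bulk RNA fewer cells of a type and less RNA per cell cannot be told apart.

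The microglial genes with the largest folds had very low levels in the parabiotic cells. Sall3, a relative of Sall1, stood at 0.115, 0.0608 and 0.334 CPM there and at 71.8, 72.4, 52.1 and 21.8 CPM in transgenic cells (8.30 ± 0.60, adjusted p = 2.59e-05). Sparc, a secreted matrix protein of adult microglia, was at 10.5, 5.96 and 19.7 against 1423, 1319, 1258 and 443.5 CPM (6.53 ± 0.56). In both genes replicate 27 was the lowest transgenic library and still far above the parabiotic values. Slc2a5, a fructose transporter used by microglia in the brain, was at 0.316 to 1.28 CPM in parabiotic and at 72.6, 90.2, 36.9 and 8.5 CPM in transgenic cells (6.25 ± 0.84, adjusted p = 0.000911). The lens crystallin Crybb1, also transcribed in young microglia, stood at 6.35 ± 0.69. Golm1, a Golgi membrane protein, was at 107 to 135 CPM against 461 to 762 CPM (2.40 ± 0.19, adjusted p = 4.02e-05).

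Surface receptors of microglia differed by smaller folds, and the parabiotic cells had measurable levels of them. P2ry12, the ADP receptor that steers microglial processes to injury, stood at 61.1, 72.6 and 77.2 CPM in parabiotic and at 656.5, 763, 656 and 331 CPM in transgenic cells, with 1590 to 2114 CPM in microglia (3.10 ± 0.28, adjusted p = 7.94e-05). Tmem119, a membrane protein of unknown receptor function, was at 158, 229 and 311 against 834, 736, 725 and 276 CPM. Here replicate 27 fell inside the parabiotic range, and the call (1.47 ± 0.35, adjusted p = 0.0211) ended without parabiotic replicate 3 or 11 (adjusted p = 0.0873 to 0.104). Csf1r, the growth factor receptor that microglia need to survive, was at 1870 to 2021 CPM in parabiotic and at 5177, 5603, 3503 and 2722 CPM in transgenic cells. Its groups did not overlap, and its call (1.13 ± 0.24, adjusted p = 0.0128) ended without any one of the 3 parabiotic libraries (adjusted p = 0.0554 to 0.0669). Siglech, a lectin of microglia that plasmacytoid dendritic cells share, was at 25.6 to 36.9 against 281, 277, 124 and 35.1 CPM. Its replicate 27 lay inside the parabiotic range, and its call (2.55 ± 0.57, adjusted p = 0.0166) also ended without parabiotic replicate 3, 11 or 15 (adjusted p = 0.0575 to 0.0808). The fractalkine receptor Cx3cr1, at 465 to 829.7 CPM in parabiotic and 2026, 2794, 1746 and 268 CPM in transgenic cells, overlapped through replicate 27 and was not called by edgeR (1.52 ± 0.57, adjusted p = 0.125). It was called by DESeq2 (adjusted p = 0.0312) and without replicate 27 (1.88, adjusted p = 0.000812).

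Members of the list without a call, named here after their values were seen, include Selplg (0.32), Cd33 (0.35), Trem2 (0.35) and Tgfbr1 (0.46). Cd33 and Trem2 are used by macrophages at large. Outside the list, the largest increases by the naming rule included Atp8a2, a phospholipid flippase, Tgfa, a ligand of the EGF receptor, Mlxipl, a glucose-responsive transcription factor, Nav3, a microtubule-associated protein, and Mrc2, a collagen uptake receptor. Atp8a2 stood at 0.0608 to 0.316 CPM in parabiotic cells and at 42.3, 51.8, 18.1 and 5.97 CPM in transgenic cells (6.995 ± 0.86). Tgfa was at 0, 0.608 and 1.00 against 72.9, 81.4, 66.5 and 19.8 CPM (6.81 ± 0.80). Mlxipl, Nav3 and Mrc2 had fold changes of 6.76, 6.62 and 6.41. Each of these genes was also abundant in microglia, and each was lowest in transgenic replicate 27.

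Genes of cell division were the other group that differed almost as a whole. In the list of G2 and mitosis genes 27 of 28 tested members rose and none fell, with a median of 2.88, where 7.63% of all tested genes rose. The S phase list had 21 of 28 higher and none lower, with a median of 1.35. Taken apart, replicates 23 and 24 had 26 of the 28 G2 and mitosis genes higher than parabiotic cells (median 2.35), and replicates 26 and 27 had 27 (median 3.30). For S phase genes these counts were 14 (median 1.05) and 26 (median 1.54), where 7.75% and 14.7% of all genes were higher. Between the transgenic sets, 1 member of the G2 and mitosis list and 3 of the S phase list were higher in replicates 26 and 27. These counts are near the 7.92% of all genes that were higher there. Leaving out parabiotic replicate 11 reduced the 21 S phase calls to 12. Leaving out any single library kept 26 or 27 of the G2 and mitosis genes.

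Promoter sequences of the 4 called G2 and mitosis genes with the lowest p are shown because genes of this class are known to share CCAAT boxes, bound by NF-Y, and cell cycle homology regions, bound by the DREAM and MuvB complexes. The 180 bases before the start site are given 5′ to 3′ from the RefSeq promoter table (GRCm38.p6), with CCAAT and TTTGAA in capitals, read on both strands.
Mki67: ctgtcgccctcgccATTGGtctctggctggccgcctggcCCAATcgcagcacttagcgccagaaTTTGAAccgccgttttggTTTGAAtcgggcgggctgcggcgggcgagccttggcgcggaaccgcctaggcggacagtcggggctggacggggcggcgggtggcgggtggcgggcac
Kif11: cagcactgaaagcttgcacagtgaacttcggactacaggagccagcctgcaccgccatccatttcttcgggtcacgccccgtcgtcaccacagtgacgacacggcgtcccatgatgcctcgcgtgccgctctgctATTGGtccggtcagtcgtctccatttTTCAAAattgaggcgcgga
Kif4: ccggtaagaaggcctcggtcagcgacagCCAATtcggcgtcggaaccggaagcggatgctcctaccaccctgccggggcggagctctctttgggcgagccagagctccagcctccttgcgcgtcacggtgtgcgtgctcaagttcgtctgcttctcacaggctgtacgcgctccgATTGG
Anln: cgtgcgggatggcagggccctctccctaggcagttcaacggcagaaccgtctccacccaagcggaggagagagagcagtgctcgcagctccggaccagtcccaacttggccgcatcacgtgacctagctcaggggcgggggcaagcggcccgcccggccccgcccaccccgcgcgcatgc
They lie at chr7:135716380-135716559, minus strand (Mki67), chr19:37376202-37376381, plus strand (Kif11), chrX:100625885-100626064, plus strand (Kif4) and chr9:22389207-22389386, minus strand (Anln). Mki67 held 2 CCAAT and 2 TTTGAA matches, Kif11 1 of each, Kif4 2 CCAAT matches and Anln neither. Of 24 tested members of the list with an entry in the table, 19 (79.2%) had a CCAAT match and 7 (29.2%) a TTTGAA match in such a window. Over the 10640 tested genes with an entry these shares were 31% and 6.94%, and 28.2% and 11.3% over all 27025 genes with one. Among 22 S phase genes 16 (72.7%) had a CCAAT match and 1 (4.55%) a TTTGAA match. The matches describe letters in these windows and no binding was measured.

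Kif11, a kinesin that separates the spindle poles, stood at 9.16, 7.85 and 6.07 CPM in parabiotic and at 40.2, 40.9, 78.3 and 38.4 CPM in transgenic cells (2.68 ± 0.35, adjusted p = 0.000724). Kif4, a kinesin of condensed chromosomes, was at 4.25, 3.74 and 3.25 against 20.3, 19.2, 41.4 and 19.7 CPM (2.75 ± 0.36, adjusted p = 0.000854). Replicate 26 was the highest transgenic library for both, and the other 3 were close together. Anln, an actin-binding scaffold of the cleavage furrow, was at 4.02 to 4.44 against 28.6, 27.6, 61.7 and 20.6 CPM (3.03 ± 0.42, adjusted p = 0.00104). Top2a, the topoisomerase that untangles replicated DNA, was at 22.5, 16.1 and 15.0 against 111, 104, 248.5 and 63.4 CPM (2.88 ± 0.48, adjusted p = 0.00303). None of these genes overlapped between parabiotic and transgenic cells. Cenpa, the histone of the centromere and the one member without a call, had a fold change of -0.11.

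Among S phase genes, Mcm10, a DNA replication factor, was at 2.21, 1.09 and 1.64 CPM in parabiotic and at 12.1, 13.8, 27.1 and 10.8 CPM in transgenic cells (3.27 ± 0.41, adjusted p = 0.000589). Rrm2, the regulated subunit of ribonucleotide reductase, was at 14.1, 8.91 and 8.80 against 57.4, 64.1, 169 and 59.0 CPM (3.04 ± 0.43, adjusted p = 0.00127). Uhrf1, which copies DNA methylation onto new strands, stood at 1.66 ± 0.21 and the checkpoint mediator Clspn at 2.26 ± 0.32. Replicate 26 was again the highest library for all 4 genes. The summed level of the G2 and mitosis list was 236 to 325 CPM in parabiotic libraries, 1005, 968, 2297 and 1026 CPM in transgenic replicates 23, 24, 26 and 27, and 684 to 1541 CPM in microglia. Transgenic cells thus lay within or above the range of the microglia in this list. Microglial identity genes were also higher than in parabiotic cells, with another order of the transgenic libraries. In percent of the microglial mean their median was 51.9, 54.4, 38.8 and 17.5 in replicates 23, 24, 26 and 27. For the G2 and mitosis genes it was 89.4, 86.1, 213 and 93.8. By summed CPM replicate 26 was highest in both lists. The part of microglia in the division genes was not tested.

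**Figure D2:**
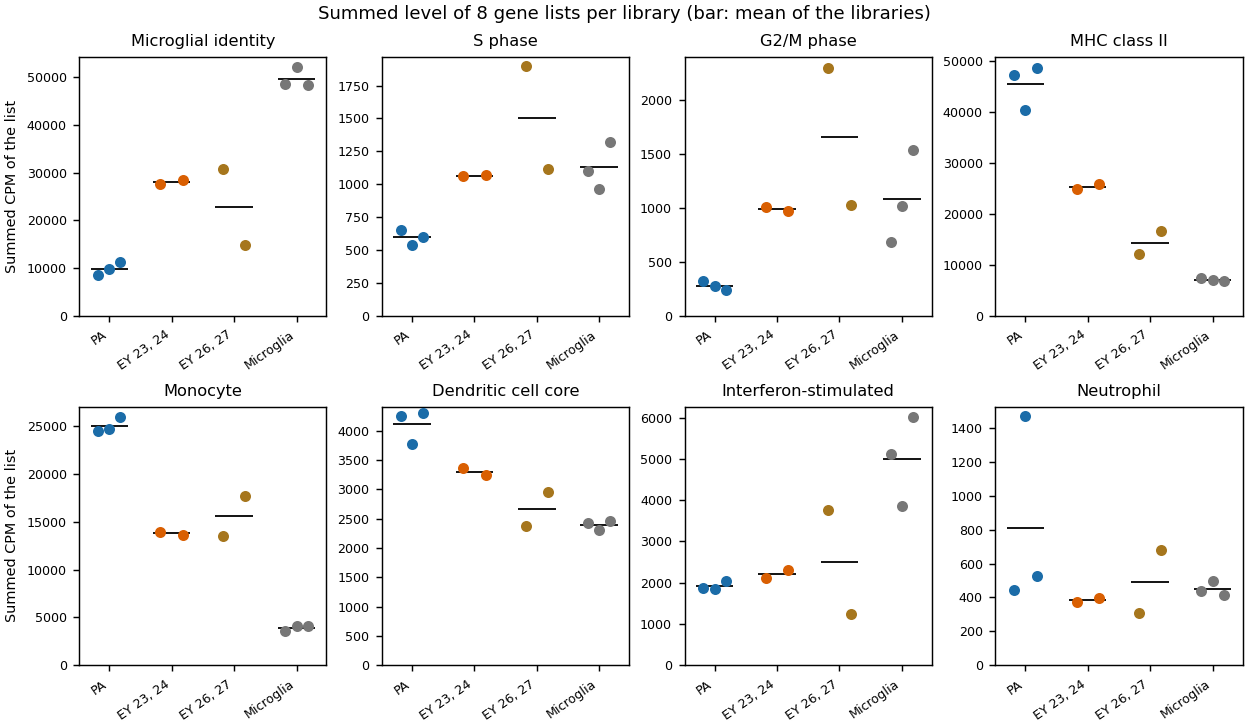
Summed CPM of the members of 8 gene lists in every library (points, linear axes from 0) with the mean of each set as a bar, for parabiotic (PA) and transgenic (EY) CD11c cells and microglia. Transgenic libraries lie between parabiotic libraries and microglia for microglial identity and MHC class II, replicate 26 stands highest for both division lists and parabiotic replicate 11 for the neutrophil list.

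Cytokines changed in a few members only. Of 22 tested cytokine genes 5 were higher, where 7.63% of all tested genes were, none was lower and 17 were not called (median 0.43). Csf1, the ligand of CSF1R, was at 15.2, 10.5 and 11.0 CPM in parabiotic and at 454, 496, 306.5 and 164 CPM in transgenic cells (4.86 ± 0.42, adjusted p = 5.48e-05). Tnfsf13b, which encodes the B cell survival factor BAFF, was at 4.75 to 6.22 against 20.2, 15.7, 22.9 and 23.1 CPM (1.91 ± 0.20, adjusted p = 0.000221). The groups did not overlap for either gene. The costimulatory ligand Tnfsf9 was the other called member (1.16 ± 0.20). Il1b did not follow Il1a: it was at 2355, 1855 and 2353 CPM in parabiotic and at 1717, 1634, 1067 and 1270 CPM in transgenic cells. Every transgenic library was below every parabiotic one for Il1b, without a call by edgeR over the 4 libraries (-0.62 ± 0.21, adjusted p = 0.0933, and 0.0371 by DESeq2) and with one for replicates 26 and 27 (-0.91, adjusted p = 0.011).

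Of 22 chemokine genes 8 were higher and 2 lower over the transgenic group, where 7.63% and 2.42% of all tested genes were. The transgenic sets differed in this list. Replicates 23 and 24 had 6 members higher and 2 lower than parabiotic cells (median -0.13), where 7.75% and 2.3% of all genes were. Replicates 26 and 27 had 10 higher and 1 lower (median 1.22), where 14.7% and 10.2% were. With replicates 26 and 27 both left out, 6 were higher and 6 lower. Ccl4, an attractant of monocytes and T cells, was at 62.7, 126 and 125 CPM in parabiotic and at 869, 869, 998.5 and 598.5 CPM in transgenic cells (2.998 ± 0.28, adjusted p = 8.92e-05), and Ccl3, its neighbour, was at 86.1 to 146 against 430 to 583 CPM (1.96 ± 0.21). Ccl12, a monocyte attractant, was at 3.36 to 5.53 CPM in parabiotic and at 68.0, 68.7, 252 and 81.0 CPM in transgenic cells (4.81 ± 0.54), again with replicate 26 highest. Ccl12 resembles Ccl2 in sequence, so reads of the pair may have been shared. Cxcl10, an interferon-induced attractant of T cells, was at 10.5 to 18.6 against 137, 122, 414 and 63.1 CPM (3.59 ± 0.59). The B cell attractant Cxcl13 was called at a very low level, 0 to 0.0304 against 1.12 to 1.97 CPM. The lower members were chemokines of mature dendritic cells: Ccl22 was at 52.9, 35.4 and 50.3 against 22.4, 21.9, 7.08 and 12.4 CPM (-1.53 ± 0.37, adjusted p = 0.0217), a call that ended without parabiotic replicate 3 or 15 (adjusted p = 0.0792 to 0.0904). Ccl17 was at 4.49 to 5.69 against 1.32 to 3.04 CPM (-1.41 ± 0.35, adjusted p = 0.0272) and lost its call without any parabiotic library or without transgenic replicate 23 or 24 (adjusted p = 0.0668 to 0.103).

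Both Tnf and Il1a are classical targets of NF-kappaB, and a list of NF-kappaB subunits, regulators and target genes was therefore counted. 6 of 20 tested were higher, where 7.63% of all genes were, and none was lower, with a median of 0.02. Nfkbiz, a nuclear inhibitor-like cofactor, was at 161, 136 and 223 CPM in parabiotic and at 1029, 1030, 989.7 and 749 CPM in transgenic cells (2.45 ± 0.21, adjusted p = 5.48e-05). Tnfaip3, the ubiquitin-editing brake A20, was at 266, 333 and 376 against 883, 852, 1086 and 626 CPM (1.41 ± 0.22, adjusted p = 0.0023). Nfkbia, the inhibitor that holds NF-kappaB in the cytoplasm, stood at 1.40 ± 0.23 and the adhesion molecule Icam1 at 1.69 ± 0.21. None of these 4 overlapped between the groups. Against parabiotic cells, replicates 23 and 24 had 6 members of the list higher and 0 lower, and replicates 26 and 27 had 5 higher and 7 lower, where 14.7% and 10.2% of all genes were. Directly between the transgenic sets 8 of 20 were lower in replicates 26 and 27, where 8.28% of all genes were. Of 29 immediate early and heat shock genes, which enzymatic dissociation can induce, 1 was called higher and 0 lower. At an unadjusted p under 0.05, 5 were higher and 6 lower. DESeq2 called 2 higher and 3 lower, where it called 1575 and 844 of all 15151 tested genes. Against parabiotic cells, replicates 23 and 24 had 4 higher and 0 lower, and replicates 26 and 27 had 1 higher and 7 lower. Between the transgenic sets 7 were lower in replicates 26 and 27 and 0 higher. The called gene was Egr1, at 71.7, 114 and 166 CPM in parabiotic and at 804, 1008, 923 and 404 CPM in transgenic cells (2.74 ± 0.37, adjusted p = 0.001).

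MHC class II genes were lower in transgenic cells. 7 of 13 tested members were lower, where 2.42% of all tested genes were, none was higher, and the median was -1.49. All 13 fold changes were below 0. Cd74, the invariant chain that guards the peptide groove, was at 16710, 13850 and 17250 CPM in parabiotic cells. It was at 8022 and 9294 CPM in transgenic replicates 23 and 24 and at 2197 and 3644 CPM in replicates 26 and 27, against 146 to 214 CPM in microglia. H2-Aa, the alpha chain of I-A, was at 6128, 4905 and 6202 CPM, at 2748 and 2630 CPM, and at 789.7 and 1305 CPM in the same order. Neither gene overlapped between parabiotic and transgenic libraries, and replicates 26 and 27 lay below 23 and 24. The fold changes were -1.46 ± 0.41 for Cd74 (adjusted p = 0.0437) and -1.62 ± 0.39 for H2-Aa (adjusted p = 0.0218).

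H2-Eb1, the beta chain of I-E, had a fold change of -1.75 ± 0.44 (adjusted p = 0.0289), and the peptide-exchange subunit H2-DMb2, at 106, 77.3 and 114 against 41.6, 38.7, 10.3 and 8.94 CPM, one of -2.00 ± 0.48 (adjusted p = 0.0233). H2-DMb1 stood at -1.26 ± 0.30 and the thiol reductase Ifi30 at -0.68 ± 0.15. H2-DMb1 and H2-DMb2 are near-identical, so reads may have been split between them. Ciita, the transactivator that turns the class II genes on, was at 161, 121 and 160 CPM in parabiotic, 89.0 and 94.3 CPM in replicates 23 and 24 and 16.8 and 9.86 CPM in replicates 26 and 27. It did not overlap, and it was not called over the 4 libraries (-1.49 ± 0.62, adjusted p = 0.172). Replicates 23 and 24 had 8 members lower than parabiotic cells (median -0.76), and replicates 26 and 27 had 12 (median -2.46). Of all genes 2.3% and 10.2% were lower in these contrasts. Between the transgenic sets 11 of 13 were lower in replicates 26 and 27 (median -1.59), where 8.28% of all genes were.

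Class II promoters carry a Y box, an inverted CCAAT motif bound by NF-Y beside the X box of the RFX complex, and 3 of them are shown with CCAAT in capitals on either strand.
H2-Aa: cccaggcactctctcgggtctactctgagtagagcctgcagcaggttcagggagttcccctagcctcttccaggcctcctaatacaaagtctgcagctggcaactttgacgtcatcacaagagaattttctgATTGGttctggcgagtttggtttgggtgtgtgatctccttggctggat
H2-Eb1: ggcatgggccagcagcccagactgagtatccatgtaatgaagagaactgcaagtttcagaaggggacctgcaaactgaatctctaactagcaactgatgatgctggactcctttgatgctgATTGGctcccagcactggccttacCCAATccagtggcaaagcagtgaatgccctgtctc
H2-DMb2: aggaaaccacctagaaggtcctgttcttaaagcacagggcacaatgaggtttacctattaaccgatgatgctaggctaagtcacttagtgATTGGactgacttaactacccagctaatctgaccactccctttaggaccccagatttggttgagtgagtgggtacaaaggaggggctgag
The windows of 180 bases before the start site lie at chr17:34287824-34288003, minus strand (H2-Aa), chr17:34305687-34305866, plus strand (H2-Eb1) and chr17:34145069-34145248, plus strand (H2-DMb2). Of 10 class II pathway genes with an entry, 7 (70%) had a CCAAT match, against 31% of the tested genes and 28.2% of all with an entry. CCAAT therefore occurs in windows of both groups of genes.

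The class II calls rested on all 3 parabiotic libraries. Without replicate 3 or 15 none of the 13 members was called over the 4 transgenic libraries, and without replicate 11 there were 3. For H2-Aa the adjusted p was then 0.0511 to 0.0761, and for H2-Eb1 0.06 to 0.0948. H2-DMb1 and H2-DMb2 lost their calls without parabiotic replicate 3 or 15 (adjusted p = 0.0781 to 0.0917), as did Ifi30 (adjusted p = 0.0611 to 0.0641), and Cd74 also without transgenic replicate 27 (adjusted p = 0.0633 to 0.13). With the microglia left out of the fit there were 2, and without a low-count filter 3. With replicates 26 and 27 both left out, 9 of 13 were lower. MHC class I differed from class II in its counts over the transgenic group: 0 of 22 members were called by edgeR, with 1 higher and 4 lower at an unadjusted p under 0.05. DESeq2 called 1 lower, and 844 of all 15151 tested genes. Against parabiotic cells, replicates 23 and 24 had 1 class I member higher and 0 lower, where 7.75% and 2.3% of all genes were. Replicates 26 and 27 had 1 higher and 5 lower, where 14.7% and 10.2% were. Between the transgenic sets 6 of 22 were lower in replicates 26 and 27, where 8.28% of all genes were.

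Genes of conventional dendritic cells had lower fitted values in most members, with a number of calls that depended on the tool. Of 31 tested core genes 3 fell by edgeR, where 2.42% of all tested genes did, and none rose. The median was -1.07, and 16 were lower at an unadjusted p under 0.05. DESeq2 called 10 lower and limma-voom 8, where they called 844 and 546 of all 15151 tested genes lower. Without parabiotic replicate 3 edgeR called 0, without replicate 11 or 15 it called 1, without transgenic replicate 26 it called 6 and without 27 it called 5. Napsa, an aspartic protease of the class II compartment, was at 342, 242 and 297 CPM in parabiotic and at 124, 128, 35.3 and 97.2 CPM in transgenic cells (-1.61 ± 0.34, adjusted p = 0.0123, and 0.0562 without parabiotic replicate 3). Slamf7, an adhesion receptor, was at 169 to 195 against 120, 118, 52.0 and 53.8 CPM (-1.11 ± 0.30, adjusted p = 0.0385, and 0.0923 to 0.121 without one parabiotic library). Pstpip1, a cytoskeletal adaptor, was at 56.5 to 62.4 against 24.9, 22.2, 14.3 and 45.0 CPM (-1.18 ± 0.30, adjusted p = 0.0296), and lost its call without any parabiotic library or without transgenic replicate 23 or 24 (adjusted p = 0.0665 to 0.0959). Each of the 3 genes was nearly absent or far lower in microglia, and none overlapped between parabiotic and transgenic cells.

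The factors that define the lineage show the split within the transgenic group. Flt3, the receptor for the growth factor of dendritic cell precursors, was at 142, 127 and 160 CPM in parabiotic cells. It was at 89.4 and 85.8 CPM in replicates 23 and 24 and at 17.9 and 30.6 CPM in replicates 26 and 27. Zbtb46, a transcription factor of conventional dendritic cells, was at 29.4, 23.7 and 36.6 CPM, then at 23.2 and 26.6 CPM, then at 5.36 and 6.70 CPM. In both genes replicates 26 and 27 lay below every other CD11c library, while replicates 23 and 24 overlapped with the parabiotic cells in Zbtb46. Over the 4 libraries edgeR called neither gene (adjusted p = 0.119 for Flt3 and 0.274 for Zbtb46). Flt3 was called by DESeq2 (adjusted p = 0.0428) and by limma-voom (0.0471). In replicates 26 and 27 against 23 and 24 Flt3 was at -1.88 (adjusted p = 0.0101) and Zbtb46 at -2.06 (adjusted p = 0.00283). The same contrast called 14 of 32 core genes lower and 1 higher, 8 of 16 cDC1 genes, 6 of 15 cDC2 genes and 8 of 24 maturation genes lower, where 8.28% of all genes were lower. Irf8, a factor that dendritic cells and microglia both use, was at 400.2 to 542 CPM in parabiotic and at 455 to 577.5 CPM in transgenic cells (0.17 ± 0.16, adjusted p = 0.604).

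**Figure D3:**
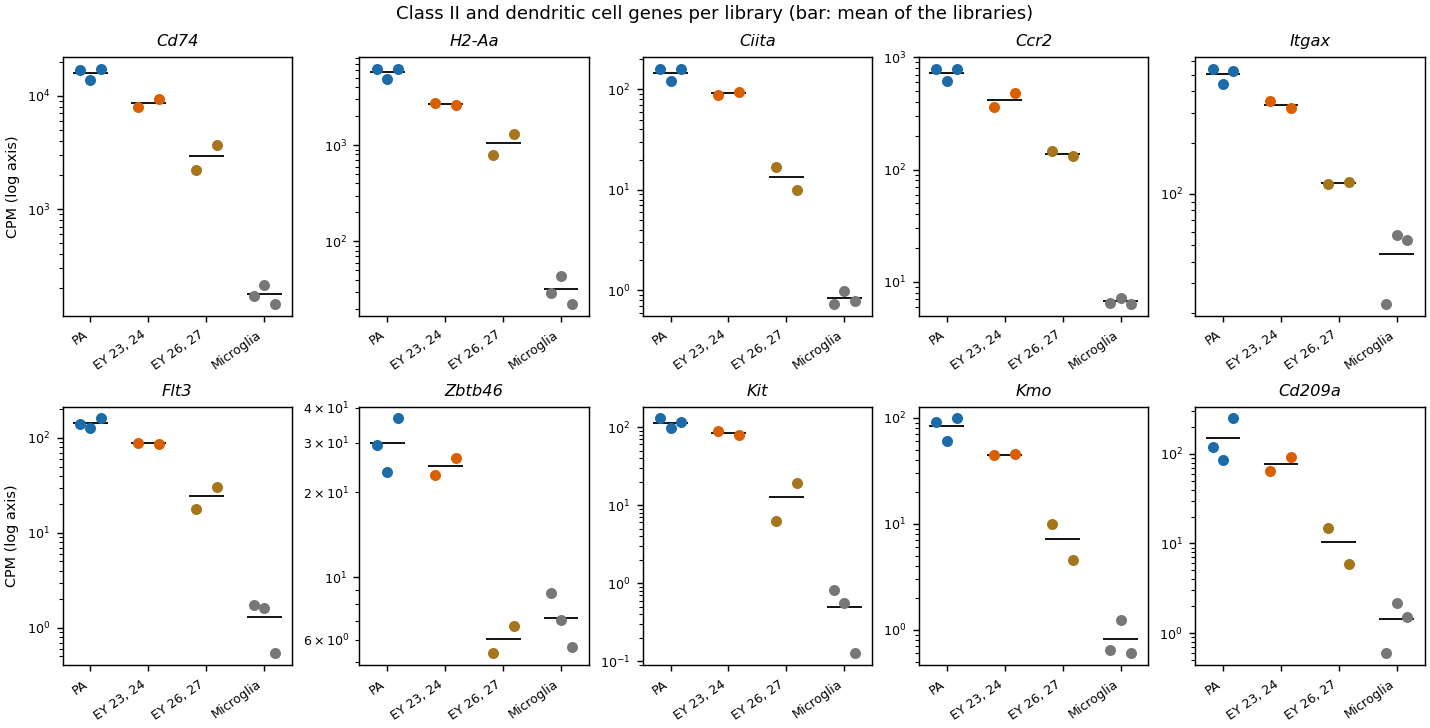
CPM (log axes) of MHC class II genes (Cd74, H2-Aa, Ciita), Ccr2, Itgax and dendritic cell genes in every library, with the mean of each set as a bar, for parabiotic (PA) and transgenic (EY) CD11c cells and microglia. Replicates 26 and 27 lie below replicates 23 and 24 for each gene shown, and microglia lie lowest except for Zbtb46.

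Among 16 cDC1 genes, which mark the cross-presenting subset, 1 was higher and 1 lower, near the shares of all tested genes (7.63% and 2.42%). The higher one was the adhesion molecule Cadm1, at 42.0, 52.0 and 56.5 CPM in parabiotic and 178, 200.0, 408 and 111 CPM in transgenic cells (2.16 ± 0.42, adjusted p = 0.00728). Microglia also had 131 to 294 CPM of it. The chemokine receptor Xcr1 (-0.46 ± 0.58) and the dead cell receptor Clec9a (-0.66 ± 0.70) were not called. Rab7b, a small GTPase of late endosomes, was the lower one (-0.74 ± 0.19, adjusted p = 0.029), without a call when any parabiotic library or transgenic replicate 23 or 24 was left out (adjusted p = 0.0643 to 0.113). Of 15 cDC2 genes 2 were higher, the integrin chain Itgam (0.83 ± 0.14) and Tnfsf9, and 2 were lower, Ccl17 and Il1r2.

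Il1r2, a decoy receptor that binds interleukin 1 without signalling, was at 808.5, 452 and 540.2 CPM in parabiotic and at 204, 188.5, 21.9 and 196 CPM in transgenic cells, and 0.737 to 0.918 CPM in microglia. All transgenic libraries were below all parabiotic ones, with replicate 26 far below the other 3. The fold change was -1.98 ± 0.54 (adjusted p = 0.0421), and the call ended without any parabiotic library or without transgenic replicate 23 or 24 (adjusted p = 0.0577 to 0.157). Cd209a, a lectin of monocyte-derived and type 2 dendritic cells, was at 121, 85.3 and 249 CPM in parabiotic, 63.8 and 92.1 CPM in replicates 23 and 24 and 14.9 and 5.94 CPM in replicates 26 and 27. It overlapped between parabiotic libraries and replicates 23 and 24, and was not called over the 4 (-1.78 ± 0.76, adjusted p = 0.178). Of 24 maturation genes 4 were lower, where 2.42% of all tested genes were. The activation marker Cd83 was the 1 higher member (0.98 ± 0.18, adjusted p = 0.00573). The lower ones were Ccl22, Ccl17, the melanosome transport protein Mreg (-1.55 ± 0.34) and the costimulatory receptor Cd40 (-0.96 ± 0.22). Mreg lost its call without parabiotic replicate 15 (adjusted p = 0.0695) and Cd40 without replicate 3 or 15 (adjusted p = 0.0715 to 0.0841).

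Monocyte genes were lower in part. Of 28 tested, 7 were lower, where 2.42% of all tested genes were, and none was higher, with a median of -0.86. Ccr2, the receptor that brings monocytes out of the marrow, was at 785.5, 620.2 and 789 CPM in parabiotic cells, at 361.5 and 477 CPM in replicates 23 and 24 and at 147 and 131 CPM in replicates 26 and 27. The groups did not overlap (-1.39 ± 0.39, adjusted p = 0.043), and the call ended without any parabiotic library or without transgenic replicate 23 or 26 (adjusted p = 0.0503 to 0.134). Lyz2, the lysozyme of myeloid cells, was at 15310, 15400 and 18400 against 8402, 8100, 10890 and 9114 CPM (-0.84 ± 0.18, adjusted p = 0.0122, and 0.0619 without parabiotic replicate 15). Ifitm6, an interferon-inducible membrane protein of myeloid cells, was at 22.3 to 26.8 against 11.3, 7.47, 3.62 and 4.77 CPM (-1.86 ± 0.34, adjusted p = 0.0055), with and without each single library. Ly6c2, the marker of inflammatory monocytes, was at 13.1 to 20.1 against 6.09 to 13.4 CPM and was not called (-0.82 ± 0.35, adjusted p = 0.178). Leaving out a parabiotic library left 3 lower members of the list, and leaving out transgenic replicate 27 gave 16.

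Further genes that the naming rule picked among the largest decreases include the coagulation protease F7, the collagen receptor Ddr1, the heparan sulphate proteoglycan Gpc1 and the surface antigen Ly6a. F7 was at 52.4, 55.9 and 45.4 CPM in parabiotic and at 12.4, 13.9, 16.1 and 20.2 CPM in transgenic cells, an even decrease (-1.71 ± 0.24, adjusted p = 0.0013). Gpc1 was at 98.0, 60.2 and 56.7 against 14.8, 17.4, 6.73 and 27.6 CPM (-2.11 ± 0.38, adjusted p = 0.00494). Ddr1 was at 56.8, 41.4 and 49.9 against 13.5, 15.2, 1.01 and 3.90 CPM (-2.56 ± 0.66, adjusted p = 0.0315, and 0.0709 to 0.1 without one parabiotic library). Ly6a stood at -1.71 ± 0.29 (adjusted p = 0.00387) and Fam83f at -1.92 ± 0.34 (adjusted p = 0.00454). F7, Gpc1, Ddr1 and Fam83f were at 0 to 2.21 CPM in microglia. For the 5 genes, no overlap between parabiotic and transgenic libraries was a condition of the naming rule and is no added result.

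Genes of phagocytes in damaged tissue were higher in part. Of 27 damage-associated genes 6 were higher, where 7.63% of all tested genes were, 21 were not called and none was lower (median 0.35). DESeq2 called 8 higher and 1 lower, where it called 1575 and 844 of all 15151 tested genes. Ch25h, the enzyme that makes 25-hydroxycholesterol, was at 0.862, 0.943 and 1.61 CPM in parabiotic and at 61.9, 55.4, 181 and 41.9 CPM in transgenic cells (6.22 ± 0.71, adjusted p = 0.000338). The protease inhibitor Cst7 was at 17.8 to 24.1 against 159.5, 117, 262 and 83.8 CPM (2.89 ± 0.45, adjusted p = 0.00206). Cathepsin Ctsl was at 813 to 936 against 1715, 1904, 3870 and 3801 CPM (1.67 ± 0.30, adjusted p = 0.00464). All transgenic libraries were above all parabiotic ones in these 3 genes. The lipid carrier Apoe, at 24370 to 40330 CPM in parabiotic and 15130 to 26320 CPM in transgenic cells, overlapped and was not called (-0.66 ± 0.28, adjusted p = 0.172). Gpnmb, a lysosomal glycoprotein of foamy phagocytes, was at 7134, 8035 and 6689 against 2280, 2135, 3469 and 2492 CPM. It did not overlap and was not called by edgeR on all 10 libraries (-1.49 ± 0.65, adjusted p = 0.187), but was with the 7 CD11c libraries alone (adjusted p = 0.00562).

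In lipid handling 1 of 27 members was called, a share near the 2.42% of all tested genes called lower: the lysosomal acid lipase Lipa (-0.76 ± 0.22, adjusted p = 0.0471). Its call ended without any parabiotic library or without transgenic replicate 23, 24 or 27 (adjusted p = 0.0675 to 0.155). Of 26 glycolysis and hypoxia genes 2 were higher, about the 7.63% of all tested genes: Pdk1, which closes the entry of pyruvate into mitochondria, at 27.5 to 48.9 against 101, 104, 103 and 70.6 CPM (1.31 ± 0.21, adjusted p = 0.00285), and Pfkfb3, a driver of glycolytic flux, at 0.65 ± 0.18 (adjusted p = 0.0493). Pfkfb3 lost its call without any parabiotic library or without transgenic replicate 23 or 24 (adjusted p = 0.095 to 0.203). Of 31 interferon-stimulated genes 2 were higher, no larger a share than the 7.63% of all tested genes: Cxcl10 and Ifi27l2a (1.39 ± 0.32, adjusted p = 0.0186, and 0.0741 to 0.0783 without one parabiotic library). The summed level of that list was 1850 to 2030 CPM in parabiotic libraries and 2118, 2294, 3767 and 1245 CPM in transgenic replicates 23, 24, 26 and 27. Of the latter pair one lay above the parabiotic range and the other below it.

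Complement and phagocytic receptor genes had 9 of 32 members higher and 2 lower, where 7.63% and 2.42% of all tested genes were. Pros1, a bridge between dying cells and the receptor Mertk, was at 74.5, 70.4 and 69.3 CPM in parabiotic and 351, 401, 460.5 and 303 CPM in transgenic cells (2.41 ± 0.17, adjusted p = 2.34e-05). Cfp, or properdin, which stabilises the convertase of the alternative complement pathway, went the other way, at 450.5, 255 and 362 against 104, 127.5, 38.0 and 136 CPM (-1.81 ± 0.40, adjusted p = 0.014, and 0.0644 without parabiotic replicate 3). The groups overlapped in neither gene. The Fc receptor Fcgr3 (0.86 ± 0.17, adjusted p = 0.00915) lost its call without parabiotic replicate 15 (adjusted p = 0.0558), and Cd300lb (-1.09 ± 0.24, adjusted p = 0.0135) without replicate 3 (adjusted p = 0.0589). The 9 higher members became 4 without parabiotic replicate 3 or 11, and 5 without parabiotic replicate 15 or transgenic replicate 23 or 24. Of 28 chemokine receptors and integrins 5 were higher and 1, Ccr2, lower, against the same shares of all genes. The 5 became 3 without parabiotic replicate 3. The vitronectin receptor chain Itgb3 was at 1.75 to 1.89 CPM in parabiotic and 57.4, 48.8, 25.0 and 13.1 CPM in transgenic cells (4.32 ± 0.47, adjusted p = 0.000293).

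Macrophage genes of tissue and brain borders had 3 of 24 higher, against 7.63% of all genes, and none lower, and without any one parabiotic library 1 was called. The 3 were the scavenger receptor Colec12 (2.19 ± 0.36, adjusted p = 0.00289), the transcription factor Maf (1.05 ± 0.25, adjusted p = 0.0224) and Mertk (0.59 ± 0.16, adjusted p = 0.0361). Colec12 was at 9.39 to 10.4 CPM in parabiotic and 31.0, 31.1, 70.7 and 47.8 CPM in transgenic cells, without overlap. Maf lost its call without any one parabiotic library (adjusted p = 0.0577 to 0.113), and Mertk also without transgenic replicate 23 or 24 (adjusted p = 0.0789 to 0.176).

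Neutrophil genes were high in single parabiotic libraries. Summed over the list, parabiotic replicates 3, 11 and 15 had 445, 1470 and 524 CPM, and the transgenic libraries had 370.3, 395, 310.0 and 678 CPM in the order 23, 24, 26 and 27. The list has 24 genes in the counts, of which 15 could be tested and 8 were lower in transgenic cells, where 2.42% of all tested genes were. The low-count filter can keep a member through the parabiotic libraries alone, as it did Ngp, and such a member can only come out lower. The 8 of 15 are therefore biased towards lower calls. Without the filter 5 of the 24 were lower, where 304 of all 28585 genes were. Ltf, the iron-binding lactoferrin of secondary granules, was at 0.718, 148 and 21.1 CPM against 0 to 0.642 CPM (-7.59 ± 1.43, adjusted p = 0.00615). Its call ended by limma-voom (adjusted p = 0.234), without a low-count filter (0.0575) and without replicates 26 and 27 (0.0849). S100a8, a calcium-binding protein abundant in neutrophils, stood at 5.06, 202 and 23.2 CPM against 0.419, 0.189, 2.94 and 17.8 CPM and was not called over the 4 (-3.84 ± 1.36, adjusted p = 0.107), but was without replicate 27 (-6.01, adjusted p = 0.0154). Replicate 11 was highest and replicate 15 next in each of these genes, and replicate 3 overlapped with or came near the transgenic libraries. Camp, another granule protein, had no count in the transgenic libraries and 0.0287, 35.3 and 4.46 CPM in the parabiotic ones. The antimicrobial Lcn2, at 0.0287, 62.2 and 7.92 against 0.027 to 1.71 CPM, was called (-5.53 ± 1.56, adjusted p = 0.046) and lost its call without parabiotic replicate 11 or 15 or transgenic replicate 23, 24 or 26 (adjusted p = 0.0709 to 0.308). Padi4, which citrullinates histones in neutrophils, was at 9.33, 17.1 and 7.38 against 2.23 to 3.49 CPM in all transgenic libraries (-1.96 ± 0.40, adjusted p = 0.00998, and 0.0687 without parabiotic replicate 11). The 8 lower members became 2 without parabiotic replicate 11, 3 without replicate 15, 4 without transgenic replicate 23 and 5 without 24 or 26, and 11 of 15 without replicate 27. Without parabiotic replicate 3 they were 11 of 21.

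Marker lists of other cells gave few calls, and of all tested genes 7.63% were higher and 2.42% lower. T cell genes summed to 99.7 to 123 CPM in parabiotic and 38.6 to 62.8 CPM in transgenic libraries, with 1 of 6 tested members lower, the interleukin 7 receptor Il7r (-1.28 ± 0.30, adjusted p = 0.0209, and 0.0674 to 0.107 without parabiotic replicate 3 or 11). NK cell genes summed to 117 to 163 against 19.0 to 80.4 CPM, with 0 of 5 called by edgeR and 3 lower at an unadjusted p under 0.05. By DESeq2 2 were lower and by limma-voom 3, where 844 and 546 of all 15151 tested genes were. Of 11 B and plasma cell genes 3 were lower, led by the immunoglobulin heavy chain Igha, at 83.4, 69.7 and 38.7 CPM in parabiotic and 17.0, 26.2, 4.45 and 5.46 CPM in transgenic cells (-2.27 ± 0.55, adjusted p = 0.0227, and 0.0753 to 0.0959 without parabiotic replicate 3 or 11). The others were Igkc (-1.77 ± 0.49, adjusted p = 0.043) and, at 0.0244 to 1.27 CPM in all CD11c libraries, Cd79a. Igkc lost its call without parabiotic replicate 3 or 11 or transgenic replicate 23 or 27 (adjusted p = 0.0554 to 0.17), and Cd79a without parabiotic replicate 3 or 15 or transgenic replicate 24 or 26 (0.0585 to 0.145). The list had 0 calls without parabiotic replicate 3 and with the 7 CD11c libraries alone. Astrocyte genes summed to 18.04 to 21.8 against 31.4 to 67.4 CPM, and to 114 to 193 CPM in microglia. 3 of 10 were higher: Gfap, the glial filament protein (1.82 ± 0.29), the glutamate transporter Slc1a3 (5.00 ± 0.83) and S100b (2.65 ± 0.58, adjusted p = 0.0146, and 0.0569 to 0.0685 without one parabiotic library). Neuronal genes summed to 0.213 to 1.40 CPM in parabiotic libraries, 1.65 to 3.998 CPM in transgenic ones and 6.71 to 9.3 CPM in microglia. Of 5 tested, 3 were higher (Map2, Rbfox3 and Slc17a7), each at 2.884 CPM or less in every CD11c library. The count was 3 by DESeq2, and 0 by limma-voom, with the 7 CD11c libraries alone or without any one parabiotic library. Of 11 endothelial and mural genes none was called by edgeR or DESeq2, and 0 had an unadjusted p under 0.05. Of 8 oligodendrocyte genes none was called by edgeR, with 3 higher and 1 lower at an unadjusted p under 0.05. By DESeq2 2 were higher, where 1575 of all 15151 tested genes were. The part of these other cells in the differences above was not tested.

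A number of genes separated replicates 26 and 27 from replicates 23 and 24, although the labels give all 4 the same genotype, age and tissue. Pcdhga12, a cell adhesion protein whose locus shares exons with other gamma protocadherins, was at 2.20 and 2.32 CPM in replicates 23 and 24 and at 92.1 and 151 CPM in replicates 26 and 27 (5.72 ± 0.38, adjusted p = 0.000335). In the parabiotic cells it was at 0.455 to 1.16 CPM and in microglia at 2.32 to 2.79 CPM, so no other library came near. Spp1, or osteopontin, a secreted matrix protein of activated phagocytes, was at 8047 and 7179 CPM in replicates 23 and 24 and at 32050 and 36160 CPM in 26 and 27 (2.14, adjusted p = 0.0253). Parabiotic libraries had 5214 to 7756 CPM of Spp1. The monocyte attractant Ccl2 was at 51.1 and 50.8 against 142 and 309 CPM (2.12, adjusted p = 0.00579), and the metallothionein Mt2 at 2.60 and 1.62 against 15.8 and 28.0 CPM (3.35, adjusted p = 0.00492). Cd63-ps, a pseudogene whose reads may stem from Cd63, was at 13.8 and 11.7 against 59.9 and 46.3 CPM (2.04, adjusted p = 0.00277).

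Other members of this set rested mainly on replicate 27. Chil3, a chitinase-like protein of alternatively activated cells, was at 35.8, 29.7, 78.3 and 499 CPM in replicates 23, 24, 26 and 27, and Postn, or periostin, at 3.46, 5.88, 15.7 and 75.5 CPM. Ccl7 was at 8.26, 9.79, 19.9 and 113 CPM and the acute phase protein Saa3 at 10.3, 6.90, 28.4 and 129.5 CPM. Their fold changes between the sets were 3.11, 3.25, 2.84 and 3.17, and each call ended without replicate 23 or 24 (adjusted p = 0.0902 to 0.251), those of Ccl7 and Saa3 also without replicate 27. Leaving out replicate 27 brought Chil3 to 1.25, Ccl7 to 1.13, Postn to 1.73 and Saa3 to 1.71. The platelet factor Pf4 was at 19.3, 21.6, 59.5 and 101 CPM (1.95, adjusted p = 0.00593, and 0.0614 to 0.0639 without replicate 23 or 24), a range that spans the parabiotic 67.3 to 80.8 CPM. Spp1, Ccl2 and Mt2 lost their calls without replicate 24, as Spp1 and Ccl2 did without replicate 23 (adjusted p = 0.0553 to 0.176 over these and, for Spp1, replicate 27).

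The genes that the naming rule picked as lower in replicates 26 and 27 include several with higher levels in parabiotic cells than in microglia. Siglecg, an inhibitory lectin of lymphocytes and dendritic cells, was at 21.4 and 20.8 CPM in replicates 23 and 24 and at 2.58 and 2.48 CPM in 26 and 27 (-3.08, adjusted p = 0.00126), against 30.3 to 44.6 CPM in parabiotic cells. Kit, the stem cell factor receptor, was at 89.3 and 79.8 against 6.25 and 19.1 CPM (-2.76, adjusted p = 0.00842, and 0.0606 to 0.0639 without replicate 23 or 24). Kmo, an enzyme of tryptophan breakdown, was at 45.1 and 45.2 against 10.05 and 4.53 CPM (-2.64), and the mucosal homing integrin Itgae at 93.5 and 61.5 against 15.8 and 6.75 CPM (-2.79). Ciita (-2.80, adjusted p = 0.00126) and the lectin Clec10a (-2.55, adjusted p = 0.00336) belonged to the same group. Run, cells and animals behind the library numbers cannot be told apart here.

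**Figure D4:**
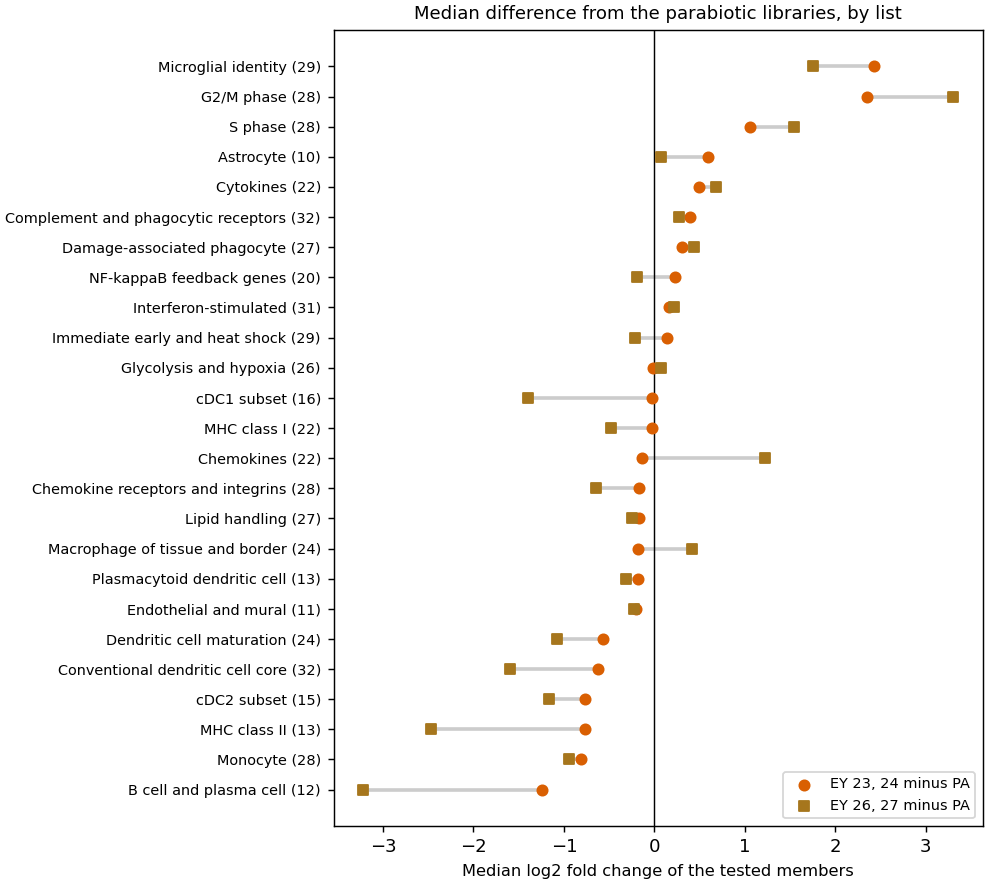
Median log2 fold change over the tested members of each list with 10 or more members (number tested in brackets), for transgenic replicates 23 and 24 (circles) and 26 and 27 (squares) against the same 3 parabiotic libraries, with the neutrophil list left out because members at 0 have no fold change. Microglial identity and both division lists lie above 1 in both sets, and MHC class II lies at -0.76 and -2.46.

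Relative to microglia, the transgenic cells took different places for different groups. The median over the 29 microglial identity genes of the CPM in percent of the microglial mean was 51.9, 54.4, 38.8 and 17.5 in transgenic replicates 23, 24, 26 and 27, and 8.43 to 11.9 in the parabiotic libraries. For the 28 G2 and mitosis genes it was 89.4, 86.1, 213 and 93.8, against 14.7 to 20.6. For cytokines it was 61.5 to 93 in transgenic and 45 to 61.6 in parabiotic libraries. Relative to the parabiotic mean, MHC class II stood at 55.4, 50.4, 13.7 and 20.5 percent in the 4 transgenic libraries, and core dendritic cell genes at 69.1, 63.7, 18.7 and 41.6 percent. Monocyte genes stood at 55.5, 48.3, 21.4 and 57.5 percent. Replicate 27 was thus lowest in microglial identity, and replicate 26 highest in division genes and lowest in core dendritic and monocyte genes.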

How the data were processed

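Per the labels' protocols, fluorescent cells were sorted without staining and libraries were made with SMART-Seq v4 from 1 or 5 ng of RNA (11 or 9 PCR cycles) and an unstranded library kit. Tools listed in the submitters' processing notes are STAR 2.5.3a, FastQC 0.11.5 and DESeq2, with the build GRCm38. The step from reads to gene counts, including strand, is not described in those notes or in the labels. Overlapping or antisense genes and close copies may therefore share reads. The authors deposited whole-number counts for 28585 genes in 10 libraries, and symbols and coordinates come from GENCODE M21 (28492 matched).

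Counts were tested with edgeR 4.0.16 (R 4.3.3; TMM, filterByExpr, robust quasi-likelihood fit, Benjamini-Hochberg) on all 10 libraries, with 3 group means (15151 genes) and with replicates 26 and 27 as a mean of their own (16058 genes). Named genes were a list of 32, the 10 largest called changes in each direction at 20 CPM or more without overlap, and the called members of lowest p in each of 31 gene lists. Members and lists were chosen with earlier results of these data known. On simulated data (15151 genes) the test of transgenic against parabiotic cells called 27 of 100 genes changed 2-fold, 98 of 100 changed 4-fold and 6 unchanged genes. The simulation gave every gene and library the same dispersion (0.1002) and changed only genes with many counts. Unlike the data, it held no split within the transgenic group. These figures are therefore no error rate for the comparison reported here. DESeq2 1.42.0, limma-voom (limma 3.58.1), other scalings and filters, the 7 CD11c libraries alone, a term for library numbers and leaving out libraries were alternatives. Leaving out replicates 26 and 27 together was added after seeing the data. A few genes that meet the naming rule are not reported here.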

Additional observations from a re-analysis of the deposited data

Results flagged for a closer look

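Among 133 genes examined in the 4 transgenic libraries, 14 had 1 library far from the other 3 by Dixon's criterion, which chance alone meets in about 1 in 20 groups. It was replicate 27 in 8 genes and replicate 26 in 6, and never 23 or 24. Replicate 27 was high in S100a8 (17.76 CPM, others 0.189 to 2.94), Lcn2 (1.705 CPM), Postn (75.48 CPM), Chil3 (499.3 CPM) and Ccl7 (112.7 CPM). It was low in Sparc (443.5 CPM), Nfkbiz (749 CPM) and Pdk1 (70.61 CPM). Replicate 26 was high in the division genes Rrm2 (168.6 CPM), Kif11 (78.31 CPM) and Kif4 (41.42 CPM), in the chemokine Ccl12 (252.4 CPM) and in Ch25h (181.4 CPM). It was low in the decoy receptor Il1r2 (21.86 CPM).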

How the results depend on the processing

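For transgenic against parabiotic cells the 1156 higher genes became 2057 with replicates 26 and 27 both left out, and 719 to 1659 with one library left out. The 367 lower genes became 844 by DESeq2, 214 with the 7 CD11c libraries alone and 1425 without replicates 26 and 27, and 111 to 851 with one library left out. For replicates 23 and 24 the 1245 higher genes became 818 with the 7 CD11c libraries alone and 470 to 946 with one left out, and the 370 lower ones 1059 by DESeq2, 235 with the 7 libraries and 12 to 152 with one left out. For replicates 26 and 27 the 1645 lower genes became 1097 to 2667. Between the transgenic sets the 1272 higher genes became 21 to 2072 and the 1330 lower ones 201 to 2475. The share of calls that were higher, 75.9%, was 65.1% by DESeq2, 64.2% by limma-voom, 59.1% without replicates 26 and 27 and 66.1% without replicate 27 alone, and 86.6%, 84.8% and 87.4% without parabiotic replicates 3, 11 and 15. Where a set is left with 1 library, that library is assumed to vary like the others. Calls of named genes were lost in 11 results by limma-voom, 20 without a low-count filter and 24 with the 7 CD11c libraries. With a term for library numbers, the same contrast as replicates 23 and 24 against parabiotic cells, 16 were lost. No named gene with a call in either fit turned its direction under any of these settings. Genes without a call could turn, as Xcr1 (0.22) and Clec9a (0.10) did for replicates 23 and 24 against parabiotic cells. The cause of the differences between settings was not tested. No paired analysis was possible because the groups share no replicate numbers.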

Other observations

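Among called genes with a mean of at least 20 CPM in the higher groups, none had every transgenic library above every parabiotic and every microglial library (0 genes), and 1 had every transgenic library below both. It was Gdf15, a stress-induced cytokine of the TGF-beta family, named after its values were seen. Gdf15 stood at 123, 131 and 137 CPM in parabiotic cells, at 51.1, 53.7, 55.6 and 58.2 CPM in transgenic cells and at 98.8, 72.4 and 83.0 CPM in microglia (edgeR, -1.25 ± 0.14, adjusted p = 0.000299). The 4 transgenic libraries lay close together. Their place below both other groups was the condition of the search and is no added result. The adjusted p compares them with parabiotic cells only, and no test against microglia was made.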
